A study of Mus musculus with 6 samples.

Results

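The genes described are 7 inhibitors of cyclin-dependent kinases and 2 Btg genes that restrain cell division, 9 of the 22180 genes of the table. They were named as a list, Cdkn1a, Cdkn1b, Cdkn1c, Cdkn2a, Cdkn2b, Cdkn2c, Cdkn2d, Btg1 and Btg2, and Btg2 and Cdkn1b in it were selected on their higher signal in Chrm1-/- cells. That is the comparison described here, so its values for these genes are given as a description and carry no test of their own. Haematopoietic stem cells (HSCs) of the C57Bl/6 strain were sorted from steady-state marrow as lineage-negative, Sca1-positive, Kit-positive and Flt3-negative cells. Their amplified RNA was hybridised to mouse gene ST arrays, 3 for wild type mice and 3 for Chrm1-/- mice. Chrm1 encodes a muscarinic acetylcholine receptor, and the labels name no treatment for either genotype. They do not name the mutant allele, the tissues in which it is deleted, the age of the mice, or whether an array holds 1 mouse or a pool. The errors therefore measure the spread between these arrays, which may be technical. The series concerns a route from this receptor in the brain through glucocorticoid hormones to the mobilization of HSCs.

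A cell enters the division cycle when cyclin D with Cdk4 or Cdk6, and then cyclin E with Cdk2, phosphorylate the retinoblastoma protein and its relatives. The INK4 inhibitors (Cdkn2a to Cdkn2d, proteins p16, p15, p18 and p19) bind Cdk4 and Cdk6, while the Cip/Kip inhibitors (Cdkn1a, p21; Cdkn1b, p27; Cdkn1c, p57) bind cyclin complexes more widely. Btg1 and Btg2 encode small proteins that bind the CCR4-NOT deadenylase and slow growth. Most HSCs are quiescent, and p57 and p27 are known for holding them there. Much of the control of p27 acts on its translation and breakdown, which an mRNA array does not measure.

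The values are log2 signals, so a difference of 1 is a doubling, and each of the 9 genes had 1 transcript cluster (probe set) on the array. All 9 reached the mean signal of 6.77, the median of all genes, that a gene needed to be tested. Array medians ran from 6.49 to 6.57. The mean correlation of an array with its own group was 0.926 for wild type replicate 3 and 0.935 to 0.938 for the other five arrays. For 4 of the 6 arrays the mean correlation with the other group was higher, as for wild type replicate 1 at 0.943 against 0.938, so over all genes the arrays did not group by genotype. Chrm1 itself read 7.45, 7.44 and 7.67 in wild type and 8.16, 7.52 and 7.58 in Chrm1-/-. No source used here places its probes inside or outside the deleted part, so these values check nothing about the labels. All 11 genes measured of a marker list for HSCs and close progenitors passed the signal filter. Their mean signal lay between 9.20 and 9.24 on the wild type arrays and between 9.06 and 9.28 on the Chrm1-/- arrays. Cd34 and Cd48 of that list, at 11.24 and 10.35 in wild type and 11.30 and 9.97 in Chrm1-/-, are not specific to HSCs. Differences over the 11 genes ran from -0.38, for Cd48, to 0.38, for Fgd5, with 6 lower and 5 higher. Of the 11 genes, 0 passed in limma and 1, Procr, the protein C receptor of HSCs, had an unadjusted p under 0.05. Procr read 8.40 to 8.5 in wild type and 8.16 to 8.24 in Chrm1-/-. Over all tested genes 2.99% had such a p. Of the lymphocyte markers, 1 of 5 for B cells and 1 of 7 for T and NK cells passed the signal filter. Btg2 and Cdkn1b were higher on every Chrm1-/- array than on any wild type array, and the other 7 genes overlapped between the groups.

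Btg2 had the widest difference of the list. It read 8.68, 9.34 and 8.44 on the wild type arrays and 9.87, 10.02 and 10 on the Chrm1-/- arrays. The lowest Chrm1-/- array lay 0.53 above the highest wild type array. Means were 8.82 ± 0.47 (SD, n = 3) and 9.96 ± 0.08 (SD, n = 3), a difference of 1.14 ± 0.24 (SE) on the log2 scale, or 2.21-fold. Among all tested genes 0.559% had a larger difference in either direction. Btg2 was selected on this comparison, so that share is a description and no test. The 3 Chrm1-/- arrays were close together, and 81.2% of tested genes varied more among those arrays. The wild type arrays were spread widely, and 13.3% of tested genes varied more among them. Btg2 is an early-response gene and a target of p53, and its protein slows entry into S phase.

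Cdkn1b read 8.31, 8.69 and 8.19 in wild type and 8.80, 8.92 and 9.34 in Chrm1-/-. The groups did not overlap, but the gap between the highest wild type and the lowest Chrm1-/- array was 0.11. Means were 8.40 ± 0.26 (SD, n = 3) and 9.02 ± 0.28 (SD, n = 3), a difference of 0.62 ± 0.20 (SE), or 1.54-fold. A larger difference in either direction was measured for 3.53% of tested genes. As Cdkn1b was also selected on this comparison, nothing is read from that share. Wild type replicate 2 was the highest wild type array for both Btg2 and Cdkn1b, and replicate 3 the lowest. The Chrm1-/- arrays did not share an order in the same way: replicate 3 stood highest for Cdkn1b, while all 3 were level for Btg2.

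The start regions of both genes are shown because the pair was high on the same arrays, with Btg1 as the close relative of Btg2 that overlapped between groups. The sequences are RefSeq promoter windows of build GRCm38.p6, from 250 bases before to 50 bases after the annotated start, 5′ to 3′ on the strand of the gene. Btg2 lies at chr1:134079106-134079405 on the minus strand, Cdkn1b at chr6:134920151-134920450 on the plus strand and Btg1 at chr10:96616751-96617050 on the plus strand. No source used here names the build of the array's probes. Capitals mark every match to the 8 motifs searched on both strands.
Btg2: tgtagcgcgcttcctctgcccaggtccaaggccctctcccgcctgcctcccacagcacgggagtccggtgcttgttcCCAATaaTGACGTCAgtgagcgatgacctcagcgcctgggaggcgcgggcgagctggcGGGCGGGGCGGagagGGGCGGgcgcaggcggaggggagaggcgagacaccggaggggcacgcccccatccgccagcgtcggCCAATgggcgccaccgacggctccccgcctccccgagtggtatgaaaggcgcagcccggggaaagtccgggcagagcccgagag
Cdkn1b: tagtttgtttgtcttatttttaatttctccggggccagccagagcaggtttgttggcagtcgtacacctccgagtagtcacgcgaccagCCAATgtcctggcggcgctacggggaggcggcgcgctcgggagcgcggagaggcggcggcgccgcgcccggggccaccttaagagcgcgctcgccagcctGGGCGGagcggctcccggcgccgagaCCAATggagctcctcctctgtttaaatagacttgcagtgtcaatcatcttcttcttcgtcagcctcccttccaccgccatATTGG
Btg1: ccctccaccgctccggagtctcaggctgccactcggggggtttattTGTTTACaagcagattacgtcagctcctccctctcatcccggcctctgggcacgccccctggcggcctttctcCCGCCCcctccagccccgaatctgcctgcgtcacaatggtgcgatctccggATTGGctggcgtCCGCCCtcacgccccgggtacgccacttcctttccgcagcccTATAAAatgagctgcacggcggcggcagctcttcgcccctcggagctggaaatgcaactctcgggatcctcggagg

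The Btg2 window holds 1 cAMP response element, TGACGTCA, 166 to 159 bases before the start, with a CCAAT box just ahead of it. This element was found in 1.79% of the 32851 mouse promoter windows of this length. It also holds 3 overlapping or neighbouring Sp1 boxes, GGGCGG, and a further CCAAT box. The Cdkn1b window holds 1 Sp1 box and 3 CCAAT boxes, the last of them after the start, and no cAMP response element. The FoxO core TGTTTAC, the short sequence bound by the FoxO factors that are known to activate Cdkn1b, matched in the Btg1 window and in neither of the other windows printed. It occurs in 3.65% of all windows.

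Windows were found for 8 of the 9 genes, 11 windows in all, since Cdkn1a, Cdkn2a and Cdkn2c have several starts. Sp1 boxes were found in 9 of these 11 windows, covering all 8 genes, and CCAAT boxes in 6 windows, against 35.7% and 37.4% of all windows. The Sp1 box is made of G and C alone, and 10 of the 11 windows had more G and C than the median window. The Btg2 window is 72.0% G or C, the Cdkn1b window 62.0% and the median of all windows 52.7%. The glucocorticoid half-site TGTTCT matched in 1 member, Cdkn2c, and in 19.0% of all windows. The p53 half-site, a motif of mixed letters given here by name, matched at 2 places in 1 window of Cdkn1a and once in that of Cdkn2d, and in 8.36% of all windows. The E-box CACGTG matched in Cdkn2c and in 7.15% of all windows, and the TATA box TATAAA in Btg1 and in 13.6%. The second cAMP response element of the list lay in the Cdkn2b window. Matches within the same window can overlap, as the Sp1 boxes of Btg2 do, and a match of letters is not a bound site.

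**Figure D1:**
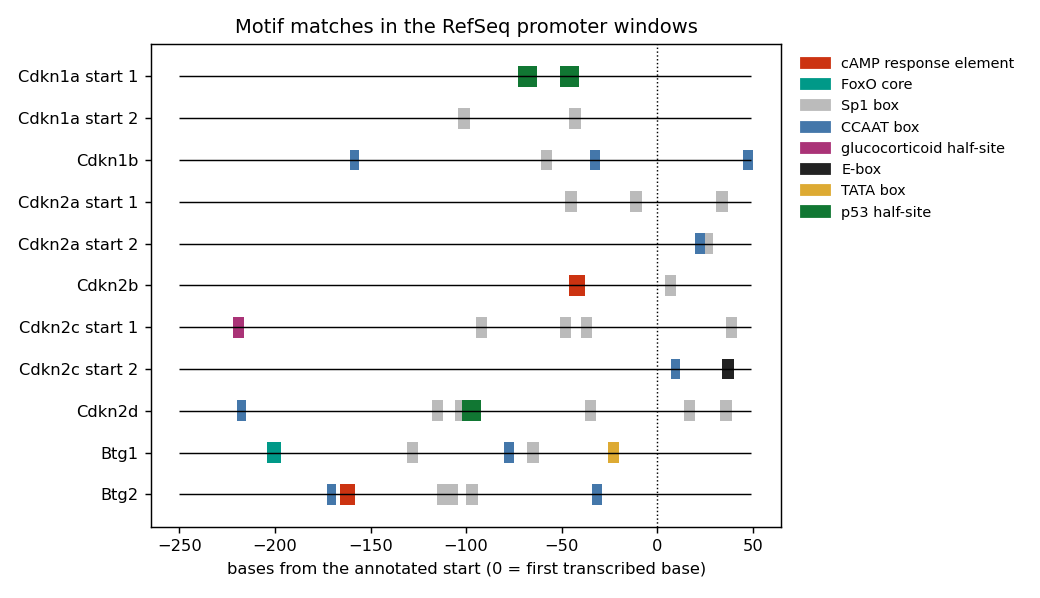
Motif matches in the 11 RefSeq promoter windows of 8 genes, by distance in bases from the annotated start at 0; each bar spans 1 match, on either strand, and its colour gives the motif. The cAMP response element is seen in Btg2 and Cdkn2b, the FoxO core in Btg1, and Sp1 boxes in at least 1 window of every gene shown.

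The other Cip/Kip inhibitors had lower means in Chrm1-/-, opposite to Cdkn1b, with groups that overlapped. Cdkn1a, the p21 gene induced by p53, read 7.53, 7.96 and 8.33 in wild type and 7.35, 7.49 and 7.93 in Chrm1-/-. Its difference was -0.35 ± 0.25 (SE), with a 95% interval from -0.96 to 0.26. Wild type replicate 3 carried the highest Cdkn1a value and the lowest Btg2 and Cdkn1b values. Without it the difference of Cdkn1a was -0.155, while without wild type replicate 1 the difference was -0.56. The groups no longer overlapped without wild type replicate 1 or without Chrm1-/- replicate 3, as for 13.9% and 13.5% of tested genes.

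Cdkn1c, the imprinted p57 gene, read 7.05, 7.37 and 7.27 in wild type and 6.66, 7.19 and 6.90 in Chrm1-/-. All 3 Chrm1-/- arrays lay below the wild type mean, and replicate 2 of them lay above the lowest wild type array. The difference was -0.31 ± 0.17 (SE), with a 95% interval from -0.73 to 0.10. It was -0.19 without Chrm1-/- replicate 1 and -0.45 without Chrm1-/- replicate 2. The groups did not overlap without Chrm1-/- replicate 2 or without wild type replicate 1, as for 14.5% and 13.9% of tested genes. So among the 3 Cip/Kip genes 1 mean was higher and 2 were lower in Chrm1-/-.

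**Figure D2:**
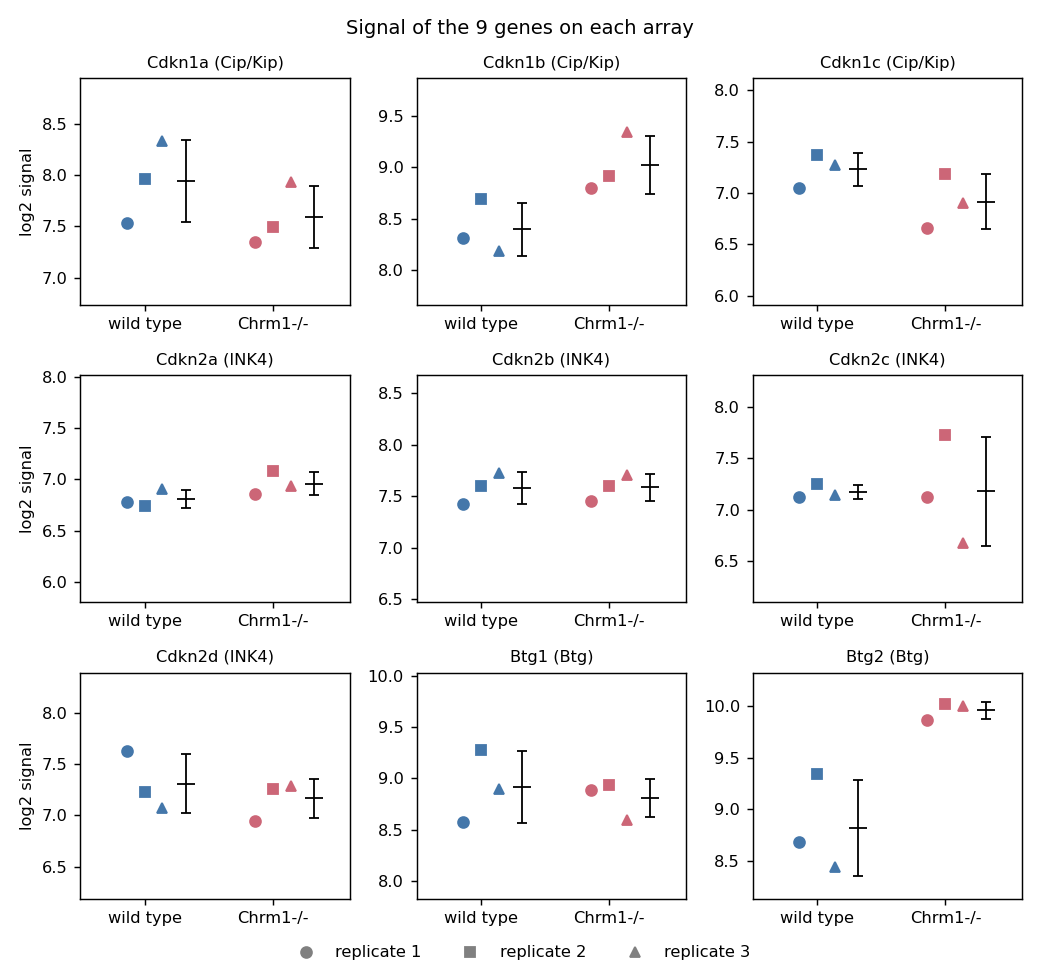
Log2 signal of the 9 genes on the 3 wild type and 3 Chrm1-/- arrays. Marker shape gives the replicate number, which is not read as pairing the groups. The bar beside each group is the mean ± SD, on axes of equal span with different origins. Btg2 at 9.87 to 10.02 and Cdkn1b at 8.80 to 9.34 in Chrm1-/- lie above every wild type array, while the other 7 genes overlap.

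The 4 INK4 genes differed little in their means. Cdkn2b, the p15 gene, read 7.42, 7.60 and 7.73 in wild type and 7.45, 7.60 and 7.71 in Chrm1-/-. The groups covered almost the same range, with a difference of 0.0033 and a 95% interval of -0.32 to 0.32. The sign turned with median centring, at -0.0067, and with quantile normalization, at -0.013.

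Cdkn2c, the p18 gene, had nearly equal means and unequal spreads. It read 7.12, 7.25 and 7.14 in wild type and 7.12, 7.73 and 6.68 in Chrm1-/-. The SD was 0.07 in wild type and 0.53 in Chrm1-/- (n = 3 each), because Chrm1-/- replicate 2 stood above all other arrays and replicate 3 below them. Of all tested genes, 10% varied more among the Chrm1-/- arrays. The difference of 0.0067 turned its sign with median centring (-0.0033), and it was -0.27 without Chrm1-/- replicate 2 and 0.255 without replicate 3. The interval from -0.63 to 0.65 was the widest of the 9 genes.

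Cdkn2a encodes p16 and, from another reading frame and start, the p53 activator Arf. Its 1 transcript cluster is not split here into those products. It read 6.78, 6.74 and 6.91 in wild type and 6.86, 7.08 and 6.93 in Chrm1-/-, close to the signal of 6.77 needed for testing. The difference was 0.15 ± 0.11 (SE), with a 95% interval from -0.13 to 0.42. The groups overlapped as deposited and did not overlap after median centring or quantile normalization, where the differences were 0.14 and 0.13. In those settings 6.90% and 7.89% of tested genes did not overlap, against 5.79% as deposited. The groups of Cdkn2a also did not overlap without wild type replicate 3, at 0.197, or without Chrm1-/- replicate 1, at 0.195. Without those arrays the share of tested genes was 17.8% and 15.7%. The difference was 0.085 without Chrm1-/- replicate 2.

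Cdkn2d, the p19 INK4 gene, read 7.63, 7.23 and 7.07 in wild type and 6.95, 7.26 and 7.29 in Chrm1-/-. Wild type replicate 1 was the highest array and Chrm1-/- replicate 1 the lowest, with the rest between them. The difference was -0.14 ± 0.18 (SE), and it was 0.017 without wild type replicate 1, -0.26 without wild type replicate 3 and -0.035 without Chrm1-/- replicate 1.

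Btg1, the relative of Btg2, overlapped between the groups. It read 8.58, 9.28 and 8.90 in wild type and 8.89, 8.94 and 8.60 in Chrm1-/-. Wild type replicates 1 and 2 marked the lowest and the highest of all 6 values. The difference was -0.11 ± 0.21 (SE), with a 95% interval from -0.61 to 0.39, and it was 0.07 without wild type replicate 2, -0.28 without wild type replicate 1 and -0.005 without Chrm1-/- replicate 3.

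**Figure D3:**
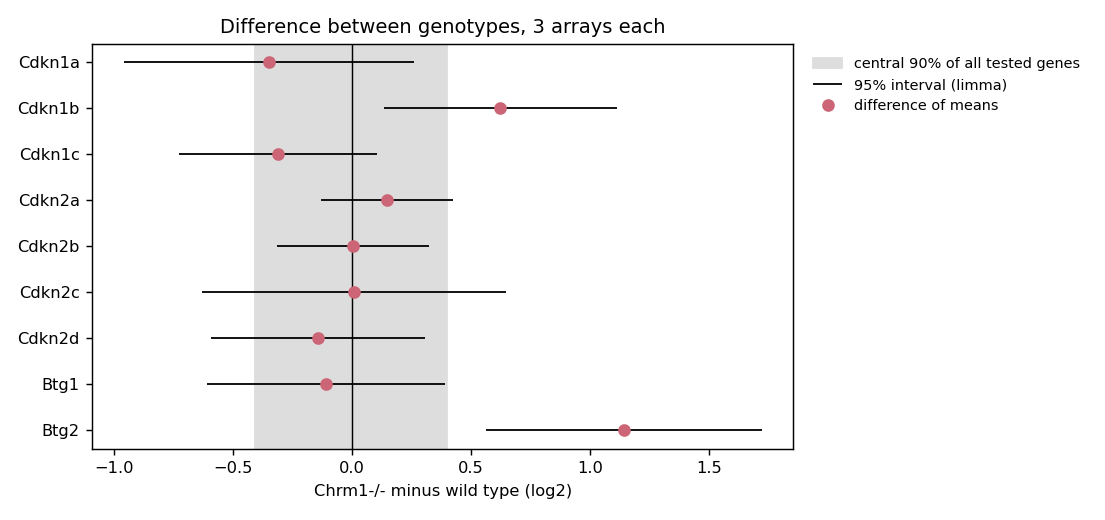
Difference of means, Chrm1-/- minus wild type (log2, 3 arrays each), with limma's 95% interval for each of the 9 genes; the grey band holds the central 90% of all tested genes, from -0.41 to 0.40. Btg2 and Cdkn1b lie to the right of the band, and the other 7 differences, from -0.35 to 0.15, lie inside it. Btg2 and Cdkn1b were selected on this comparison, so their intervals and places are a description and no test.

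Over the whole table, limma called 0 of 11094 tested genes at an adjusted p of 0.05, with 0.926 as its lowest adjusted p, and so called none of the 9. The share called was thus 0%, and 332 genes, 2.99%, had an unadjusted p under 0.05. Groups did not overlap for 5.79% of tested genes, 2.81% with Chrm1-/- higher and 2.97% with it lower, against 2 of the 9 genes, both higher. A difference of at least 1.5-fold was measured for 4.31% of tested genes and for 2 of the 9. Since the 2 were selected on this comparison, nothing is read from their count. The 9 differences had a median of 0.0033, with 5 above and 4 below 0, and the median size of a difference was 0.147 against 0.12 over all tested genes.

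Groups that do not overlap stay apart when an array is removed, so leaving out arrays bears on the size of the Btg2 and Cdkn1b differences and not on their direction. Btg2 ran from 0.95, without wild type replicate 3, to 1.40, without wild type replicate 2. Cdkn1b ran from 0.46, without Chrm1-/- replicate 3, to 0.77, without wild type replicate 2. With 1 array fewer, 13.1% to 17.8% of tested genes had groups without overlap. The number of non-overlapping genes among the 9 ran from 2 to 4, with Cdkn1a and Cdkn1c added on the lower side without wild type replicate 1.

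**Figure D4:**
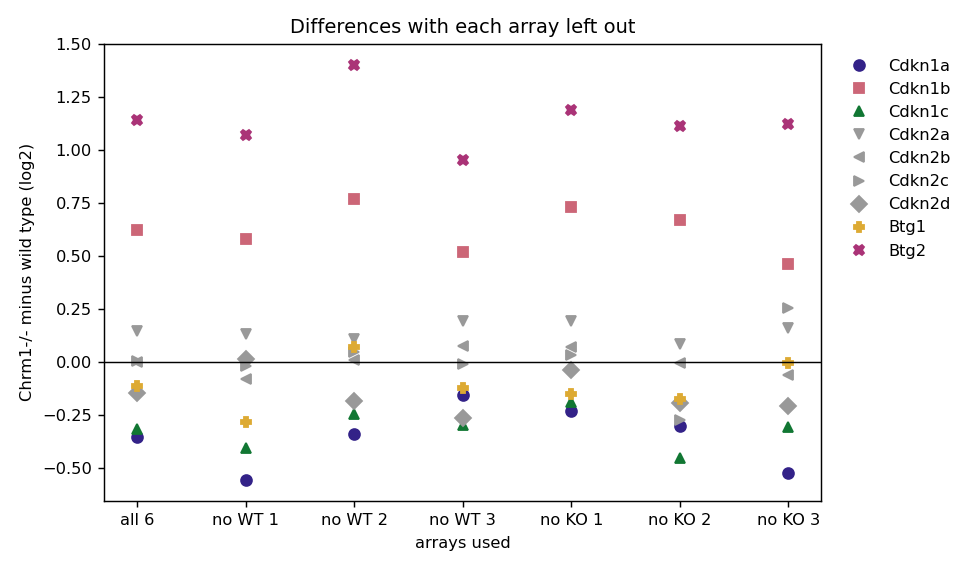
Difference between genotypes (log2) of each of the 9 genes with all 6 arrays and with each array left out in turn; WT is wild type and KO is Chrm1-/-. Btg2 stays between 0.95 and 1.40 and Cdkn1b between 0.46 and 0.77, while Btg1, Cdkn2b, Cdkn2c and Cdkn2d lie on both sides of 0.

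Likeness to other genes was measured as the root-mean-square distance between log2 values over the 6 arrays, each gene centred on its own mean, for the 3 members whose values spanned at least 1. Nearest to Btg2 were Spty2d1 at 0.21, Elovl7, Zc3h12c, Slc2a1 and Klf12, the last at 0.275. Nearest to Cdkn1b were Depdc5 at 0.127, E2f5 at 0.13, Pomgnt2, Tmem63b and Saal1. Nearest to Cdkn2c were Lax1 at 0.054, Taf6, Nemp2, Anxa7 and Ccdc149, which all read highest in Chrm1-/- replicate 2 and lowest in Chrm1-/- replicate 3. These distances are ranked over 11094 genes and only 6 arrays and carry no test.

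Cdkn1b was closer to Btg2, at 0.32, than any other member was, and ranked 14 among all tested genes by that distance. Seen from Cdkn1b, whose values span less, Btg2 ranked 935. Both genes were selected on their higher signal in Chrm1-/- cells. A short distance between them follows in part from that selection, and nothing is read from it. Btg1 and Btg2 were 0.66 apart, and Cdkn1a and Cdkn1b 0.57. The closest pair was Cdkn2a and Cdkn2b, neighbours on chromosome 4, at 0.126, with values that spanned 0.34 and 0.31 over the 6 arrays.

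Among the cyclins and kinases that the inhibitors bind, none stood apart between the groups. Over all tested genes 5547 had lower and 5547 higher means, and 2.99% had an unadjusted p under 0.05 in limma. The counts of each list are to be read against these. Of 10 tested, 0 passed in limma, 0 had an unadjusted p under 0.05, 6 had lower and 4 higher means in Chrm1-/-, and the median difference was -0.12, against 0 for all tested genes. Cdk2, the partner of cyclin E that p27 inhibits, read 8.86, 9.27 and 9.14 in wild type and 8.99, 8.84 and 8.53 in Chrm1-/-, a difference of -0.30 ± 0.17 (SE). Cdk4 differed by -0.18 ± 0.15 (SE) and Cdk6 by 0.087 ± 0.11 (SE). The D cyclins Ccnd1, Ccnd2 and Ccnd3 differed by 0.023, -0.097 and 0.077. The list's median was -0.04 without Chrm1-/- replicate 2, -0.059 without Chrm1-/- replicate 1, -0.066 without wild type replicate 1 and -0.072 without wild type replicate 3.

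Of 16 tested genes of the retinoblastoma and E2F families, the targets downstream of those kinases, 0 passed and 3 had an unadjusted p under 0.05 in limma, 2 of them lower. Over all tested genes 2.99% had such a p in either direction. E2f3, an activator of S phase genes, read 9.41, 9.10 and 9.27 in wild type and 8.72, 9.02 and 8.91 in Chrm1-/-, and its groups did not overlap. It was the 1 gene of the 16 without overlap, against 5.79% of all tested genes. Tfdp1, the dimer partner of the E2F proteins, differed by -0.53 ± 0.22 (SE). E2f5, a partner of the p130 repressor, differed by 0.56 ± 0.23 (SE) and was also among the genes nearest in pattern to Cdkn1b. The list's median was -0.15, with 10 lower and 6 higher, and it was -0.052 without Chrm1-/- replicate 2, -0.0825 without wild type replicate 1, -0.10 without Chrm1-/- replicate 1, -0.10 without wild type replicate 2 and -0.075 when the clusters of a gene were averaged.

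The machinery that degrades or relocates p27 gave no member past either threshold, 0 of 16 tested by adjusted p in limma and 0 by unadjusted p, with a median of -0.043. That median was 0.023 without wild type replicate 1, 0 without wild type replicate 2 and -0.107 without wild type replicate 3, and -0.068 with weighted arrays. Skp2, the ubiquitin ligase subunit that recognises p27, read 7.34, 8.29 and 6.76 in wild type and 7.10, 7.10 and 7.58 in Chrm1-/-, so the wild type arrays alone spanned all the others. Its cofactor gene Cks1b differed by 0.10 ± 0.15 (SE). Akt1, whose kinase phosphorylates p27 and FoxO proteins, differed by 0.37 ± 0.27 (SE).

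Relatives and partners of the Btg proteins likewise had 0 of 14 tested genes past the adjusted p in limma and 0 with an unadjusted p under 0.05, and a median of -0.0083 that lay between -0.015 and 0.054 with 1 array left out. The deadenylases Cnot7 and Cnot8, which the Btg proteins bind, differed by 0.037 ± 0.21 (SE) and -0.033 ± 0.16 (SE). The related antiproliferative genes Tob1 and Tob2 differed by 0.39 ± 0.33 (SE) and 0.26 ± 0.16 (SE). Cnot11 had the largest difference of this list, 0.69 ± 0.34 (SE), with wild type at 8.09, 8.47 and 7.48 and Chrm1-/- at 8.47, 9.26 and 8.38.

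Among factors that control transcription of these genes, 0 of 23 tested passed in limma and 0 had an unadjusted p under 0.05, with a median of 0.0067 that lay between -0.058 and 0.038 with 1 array left out. Foxo1 read 7.79, 8.08 and 7.35 in wild type and 8.18, 8.02 and 8.02 in Chrm1-/-, a difference of 0.33 ± 0.20 (SE), while Foxo3 differed by -0.13 ± 0.15 (SE) and Foxo4 by -0.40 ± 0.23 (SE). Smad3, a transducer of TGF-beta signals that induce p15, differed by 0.26 ± 0.12 (SE), with groups that did not overlap. Suz12, a subunit of the Polycomb complex known to silence Cdkn2a, differed by -0.27 ± 0.13 (SE), also with no overlap. Of the 23 genes, 1 was without overlap on the higher side and 1 on the lower, against 2.81% and 2.97% of tested genes. The Polycomb gene Bmi1 read 6.77 ± 0.017 (SD, n = 3) and 6.73 ± 0.17 (SD, n = 3), just below the signal needed for testing.

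Of 20 other targets measured of p53, which also induces Cdkn1a and Btg2, 10 lay below the signal filter. The 10 tested had 0 genes past the adjusted p in limma and 0 with an unadjusted p under 0.05. Their median was -0.022, with 0.031 without wild type replicate 1, 0.0092 without Chrm1-/- replicate 3, -0.088 without Chrm1-/- replicate 1 and -0.090 with weighted arrays. Mdm2, the ubiquitin ligase that p53 induces, differed by 0.033 ± 0.12 (SE). Immediate early genes, a class that includes Btg2, had 17 of 26 tested genes higher and a median of 0.053. The median was 0.018 without wild type replicate 1, 0.024 without Chrm1-/- replicate 3, 0.024 with weighted arrays, 0.028 with the mean of all clusters and 0.03 with the filter at the 75th percentile. Of these 0 passed in limma and 1 had an unadjusted p under 0.05, Ier3, which was lower in Chrm1-/- at -0.57 ± 0.23 (SE). Atf3 and Zfp36l1 differed by 0.39 ± 0.18 (SE) and 0.36 ± 0.19 (SE). On the Chrm1-/- arrays the mean of this list, less its mean over all arrays, was -0.069, -0.021 and 0.161, and on the wild type arrays -0.096, -0.028 and 0.054. Btg2 was level over the 3 Chrm1-/- arrays and lowest in wild type replicate 3, the wild type array where the list mean was highest. The relation of Btg2 to the list was not tested.

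HSC quiescence regulators had 13 of 21 tested genes higher, a median of 0.06, 0 past the adjusted p in limma and 0 with an unadjusted p under 0.05. That median was -0.005 without Chrm1-/- replicate 2, 0.11 without Chrm1-/- replicate 3, 0.035 without Chrm1-/- replicate 1 and 0.038 without wild type replicate 3. Glucocorticoid receptor and response genes had 7 of 10 tested genes higher and a median of 0.063, which was 0.0067 over all 17 measured with no filter on dim genes and 0.0083 with the filter at the 75th percentile. It was 0.015 without Chrm1-/- replicate 1, 0.03 without wild type replicate 3, 0.096 without wild type replicate 2 and 0.0975 without Chrm1-/- replicate 2. In limma 0 passed and 1 had an unadjusted p under 0.05, Zbtb16, a zinc finger factor that read 6.53, 6.83 and 6.82 in wild type and 7.53, 7.10 and 7.12 in Chrm1-/-.

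Proliferation markers had lower mean signals on the arrays where Btg2 and Cdkn1b were higher. Of 27 tested, 21 had lower and 6 higher means in Chrm1-/-, with a median of -0.20, which was -0.13 without wild type replicate 1. In limma 0 passed and 4 had an unadjusted p under 0.05, all lower, and the groups did not overlap for 6, all lower. Over all tested genes 2.99% had such a p in either direction and 2.97% did not overlap with Chrm1-/- lower. Birc5, the survivin gene, read 8.54, 8.38 and 8.90 in wild type and 7.93, 7.72 and 7.56 in Chrm1-/-. Nuf2 of the kinetochore differed by -0.79 ± 0.18 (SE) and Mcm4 of the replicative helicase by -0.66 ± 0.23 (SE). The mean signal of the list lay between 9.53 and 9.71 on the wild type arrays and between 9.36 and 9.40 on the Chrm1-/- arrays. These values come from the same arrays as those of Btg2 and Cdkn1b, were known when the list was drawn up, and their relation to the 2 genes was not tested.

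**Figure D5:**
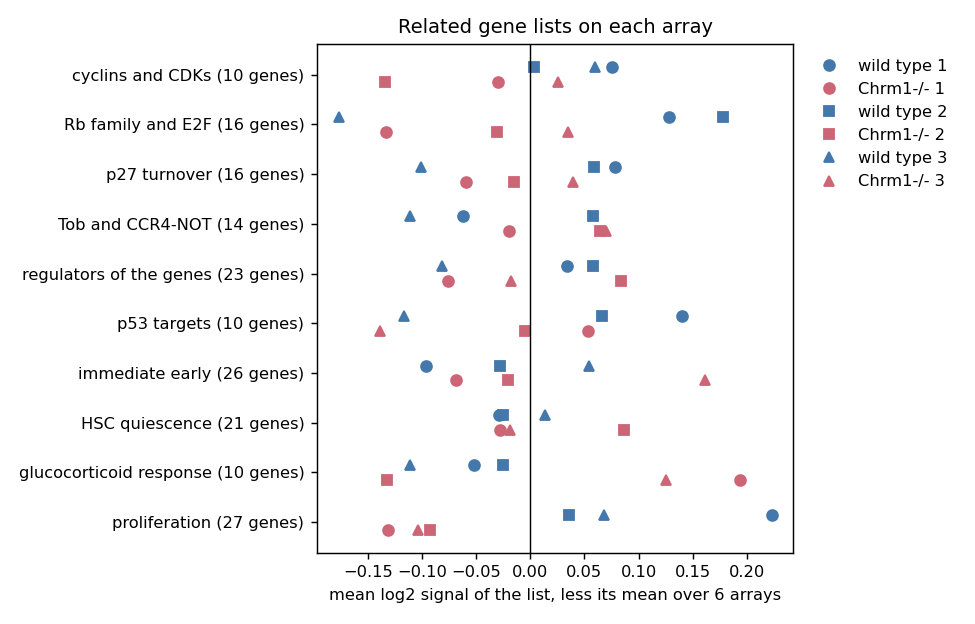
Mean log2 signal of each related gene list on each array, less the list's mean over the 6 arrays, with wild type in blue, Chrm1-/- in red and marker shape for the replicate number. Only the proliferation list has all 3 Chrm1-/- arrays, at -0.131 to -0.093, below all 3 wild type arrays, at 0.036 to 0.223. In the other lists the genotypes overlap. The proliferation list was drawn up with these values known, and its separation was not tested.

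Markers of other blood cells were set beside these results, since fewer cells of a type and less RNA per cell cannot be told apart in sorted bulk samples. Granulocyte precursor markers had 4 of 4 tested genes lower, with a median of -0.25 against -0.18 over all 10 measured, and mean signals over the 10 from 7.25 to 7.41 in wild type and from 7.09 to 7.31 in Chrm1-/-. The monocyte and macrophage list was highest in wild type replicate 3, the array lowest in Btg2 and Cdkn1b, with a list mean 0.515 above its mean over all arrays. The macrophage gene Cd68 read 8.79, 9 and 10.25 in wild type and 8.47, 8.16 and 8.19 in Chrm1-/-. It was thus lower on every Chrm1-/- array than on any wild type array, as were 2.97% of tested genes. Its difference was -1.07 ± 0.39 (SE). Of the 4 tested genes of that list, it alone had an unadjusted p under 0.05 in limma, and none had an adjusted one. Among those 4, 2 had lower and 2 higher means in Chrm1-/-, with a median difference of 0.015. C1qa and C1qb differed by 0.083 and 0.18, and Lyz2 by -0.053. Over the 6 markers of that list the mean signal ran from 7.55 to 8.10 in wild type and from 7.51 to 7.75 in Chrm1-/-. Without wild type replicate 3 the differences were 0.95 for Btg2 and 0.52 for Cdkn1b. Erythroid markers, 5 of 9 measured, had mean signals from 7.99 to 8.11 in wild type and from 7.95 to 8.23 in Chrm1-/-, and megakaryocyte markers, 5 of 6 measured, from 7.62 to 7.69 and from 7.35 to 7.71. The defining genes of B cells, T and NK cells, and stroma were mostly below the signal filter, 4 of 5, 6 of 7 and 4 of 6 of those measured. The part of these cells in the values of the 9 genes was not tested.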

How the data were processed

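HSC RNA from 3 wild type and 3 Chrm1-/- samples was compared by labelled genotype. The authors ran the chips through Affymetrix TAC software, per the labels' design text, which states no version, summarization or normalization. The deposited values, from 3.02 to 13.67 with like array medians, were taken as log2 signals and used without further scaling. The platform annotation gave 1 symbol to 23521 of 41345 transcript clusters, several to 1814 and none to 16010; only the first were used, and the cluster of highest mean stood for a gene. Genes at or above the median mean signal were fitted with limma 3.58.1 (lmFit and eBayes, two-sided) under R 4.3.3, and p-values were adjusted by Benjamini and Hochberg over the 11094 genes tested. Standard errors and 95% intervals are limma's. The fit was tested on simulated data. The members and gene lists were chosen with earlier results of these data known. Genes named from a list are its 3 lowest by unadjusted p plus known direct partners of the members; nearest genes exclude predicted genes, small RNAs and receptor segments. Listed genes missing from a count were not analysed here. Alternatives covered filters, scaling, clusters, moderation, weighting of arrays, a replicate block and leaving out each array. Promoter windows came from RefSeq tables of GRCm38.p6, matched by gene identifier. Plots were drawn with matplotlib 3.10.9, and tables made in Python 3.11.15 (numpy 2.4.6; pandas 2.3.3).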

Additional observations from a re-analysis of the deposited data

How the results depend on the processing

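Of 129 values of the 9 genes under the alternatives, 0 moved by more than 1 SD between replicates, and 11, of Cdkn2b, Cdkn2c, Cdkn2d and Btg1, turned their sign. The count of 0 was close to fixed in advance, and nothing is read from it. Leaving out 1 of 3 arrays cannot shift a difference by that SD. Filters, moderation and the replicate block leave the difference of a gene as it is. The number of genes with an unadjusted p under 0.05 was 567 with no filter on dim genes, 169 with a filter at the 75th percentile and 149 when at least 1.5-fold was also required; without 1 array it ran from 335 to 522. With the filter at the 75th percentile 3 of the 9 genes were left, Btg1, Btg2 and Cdkn1b, and their median difference was 0.62; without 1 array the median of the 9 ran from -0.175 to 0.047. The number of genes past the adjusted threshold was 1 without moderation, Apmap, and ran from 0 to 1 without 1 array, with Gdpd3 passing without wild type replicate 1 and Snord49a without Chrm1-/- replicate 3; these 3 genes were named after their values were seen. The number of members whose groups do not overlap ran from 2 to 4 without 1 array. The share over all tested genes then ran from 13.1% to 17.8%, against 5.79% with all arrays, and nothing is read from the rise. Arrays with the same replicate number did not deviate together, with correlations of -0.031, 0.009 and -0.011, so the numbers do not pair the samples; with the replicate block 396 genes had an unadjusted p under 0.05, 0 passed the adjusted threshold and the Btg2 difference was 1.14. Precision is limited by having 3 arrays a group: over all tested genes a difference had a median standard error of 0.17.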
